A study of Mus musculus with 11 samples.

Results

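The gene examined was Jazf1, which encodes a zinc finger protein, in the mouse pre-T line Beko. Its members were all rows carrying the symbol Jazf1 in the authors' deposited table of regions with acetylated histone H3 lysine 27 (H3K27ac), and 35 of 56342 regions did so. The cells had been treated for 24 h with apicidin at 0.01 mg/ml, a histone deacetylase inhibitor that the labels direct at HDAC3, with DAPT at 10 mg/ml, a gamma-secretase inhibitor (GSI), or with DMSO as the vehicle control, the doses being those of the labels. H3K27ac was profiled by chromatin immunoprecipitation and sequencing (ChIP-seq) in 2 libraries per condition, RBPJ binding in 2 libraries of DMSO cells, and 1 input library was made per condition. All groups come from the same cell line, and whether the 2 libraries of a group were separate cultures is not labelled, so the errors measure the spread between libraries, which may be technical. Jazf1 was selected on measured values, the apicidin and GSI fold changes of its regions in this table. The fold changes, calls and counts of its regions are therefore a description, with no test, and the sign of its changes supports nothing further.

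H3K27ac marks active promoters and enhancers; acetyltransferases write it and histone deacetylases remove it. RBPJ is the DNA-binding protein of the Notch pathway, and gamma-secretase releases the Notch fragment that joins it at target genes. In human cells the JAZF1 protein is a subunit of the TIP60/NuA4 complex, an acetyltransferase for histone H4 and the histone variant H2A.Z. The human protein also binds the nuclear receptor NR2C2, and its gene is fused to SUZ12 or PHF1 in endometrial stromal tumours.

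Of 10 pre-T markers, 9 had a region over a transcription start site (TSS), among them Ptcra, Rag1, Tcf7 and Cd3e, whereas Cd3d had none. None of the 4 B-lineage markers and none of the 4 myeloid markers, Spi1 included, had one. The table holds no value per library, so the sequencing depth of single libraries is unknown and only means and comparisons could be used.

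The acetylated part of Jazf1 lay around an internal start of the gene. The authors assigned all 35 regions to the transcript NM_001168277, and their distances place its TSS at base 52859614 of chromosome 6 (build mm9). In the RefSeq tables, which use the later build GRCm38.p6, Jazf1 is a minus-strand gene of 300560 bases on chromosome 6, from 52768065 to 53068624, with an outer start at 53068624 and an inner start at 52909620, 159004 bases further along the transcript's direction. The inner start is the one in the authors' table by its spacing from the neighbouring gene Tax1bp1, 195891 bases in the table and the same in GRCm38.p6. Both promoter windows are shown, since acetylation was listed at one start and not at the other; each runs from 250 bases before to 50 bases after the start on the gene's own strand, is taken from RefSeq on GRCm38.p6, and has its CpG dinucleotides in capitals.
Jazf1 inner start, chr6:52909571-52909870, minus strand: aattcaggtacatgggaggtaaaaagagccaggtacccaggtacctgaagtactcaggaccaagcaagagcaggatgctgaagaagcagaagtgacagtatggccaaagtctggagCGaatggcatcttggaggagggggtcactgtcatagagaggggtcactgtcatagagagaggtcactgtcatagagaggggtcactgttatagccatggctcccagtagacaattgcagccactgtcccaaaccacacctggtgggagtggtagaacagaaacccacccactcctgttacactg
Jazf1 outer start, chr6:53068575-53068874, minus strand: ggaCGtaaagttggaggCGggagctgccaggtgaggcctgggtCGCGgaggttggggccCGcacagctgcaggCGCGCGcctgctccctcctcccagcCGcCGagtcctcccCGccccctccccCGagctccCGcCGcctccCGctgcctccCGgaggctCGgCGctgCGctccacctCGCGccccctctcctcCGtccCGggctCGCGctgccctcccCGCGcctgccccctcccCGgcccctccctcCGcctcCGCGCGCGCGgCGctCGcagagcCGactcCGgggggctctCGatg
The inner window held 1 CpG and 51.7% G and C. The outer window held 39 CpG and 79.0% G and C, and 95.6% of the 32851 RefSeq mouse promoter windows held fewer CpG, against 5.43% for the inner one. Neither window held TGGGAA, the core of the RBPJ motif, on either strand, nor GTGGGAA, which contains it; 25.6% and 6.38% of all windows did. This says only that those letters were not in these 300 bases.

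No listed region lay near the outer start. In the authors' deposited table the Jazf1 regions ran from 52765802 to 52922603 on mm9, with the farthest 62787 bases upstream of the inner TSS and 93457 bases downstream of it. On the upstream side, the next region of any gene began at 53359247, 436643 bases on, and the outer start lies within that stretch by the spacing above. The 35 regions covered 73290 bases, 46.7% of a span of 156802 bases that held no region of another symbol. Jazf1 had more regions than most genes: 101 of 12081 symbols had more, and the median symbol had 2. RefSeq places 5 other genes, all long noncoding RNAs or a pseudogene, inside the Jazf1 bounds, and the authors' table assigned no region to them.

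**Figure D1:**
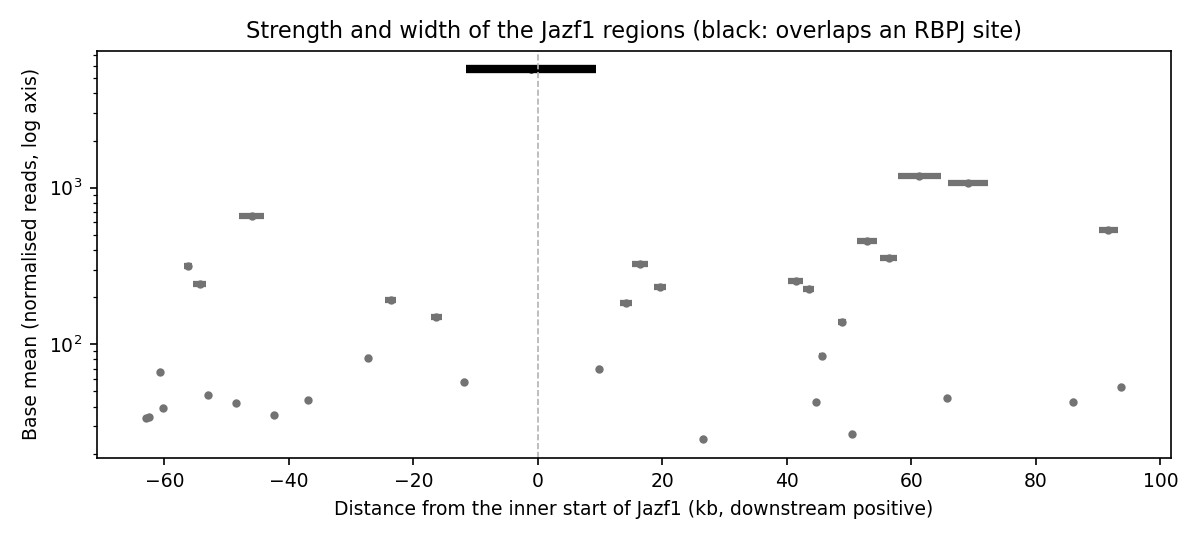
Base mean of each of the 35 Jazf1 regions (y axis, normalised reads, log axis) against distance from the inner start in kb (x axis, downstream positive); bar length is the width of the region, and black marks the region that overlaps an RBPJ site. The black region, 20.9 kb wide with a base mean of 5706, stands above the others, which range from 24.7 to 1179.

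The strongest region was the broad domain over the inner start. It spanned 52850259 to 52871157, 20.9 kb, and in the authors' deposited table its base mean, the mean of normalised reads over libraries, was 5706. By base mean it ranked 78 and by width 41 among all 56342 regions. It was the only Jazf1 region over a TSS and the only one marked as overlapping an RBPJ site, so 2.86% of the Jazf1 regions carried that mark, against 2.73% of the table. Among the 1538 RBPJ-overlapping regions it ranked 21 by base mean. It held 43.6% of the summed base mean of the locus in 28.5% of the covered length, and at 273 per kb it was the densest of the 35, the others starting at 71.3 per kb. The median density of the Jazf1 regions was 125 per kb, against 107 per kb in the table.

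The other 4 regions with a base mean above 500 lay on both sides and, with the start domain, carried 69.8% of the locus signal. Downstream of the start lay a pair of wide neighbours, from 52787309 to 52793664 (base mean 1065, 168 per kb) and from 52794855 to 52801809 (base mean 1179, 170 per kb), in the authors' deposited table. The region from 52766451 to 52769460, 90.2 kb downstream, had a base mean of 533, and the region from 52903624 to 52907618, 44.0 kb upstream, one of 656, by the same authors' deposited table. The 16 weakest regions had base means from 24.7 to 69.7, below the level of 72.1 under which the table gives no adjusted p for GSI.

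Acetylation of the Jazf1 regions was lower in apicidin-treated than in DMSO cells almost throughout. In the authors' deposited table, 34 of 35 regions had a negative log2 fold change, with a median of -0.63 and a range of -1.21 to 0.18, against a median of 0.0040 over all regions. At an adjusted p under 0.05 (the authors' DESeq2) 24 were called lower, 11 were not called and 0 were called higher; at an unadjusted p under 0.05 there were also 0 higher. Of all regions in the table, 14.1% were called lower and 9.69% higher. The 24 decreases ran from -0.33 to -1.21 with a median of -0.70. Because the authors normalised between libraries, each change is relative to the other regions, and a shift shared by the whole table would not show.

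The decrease was of similar size over the strong regions. The start domain fell to 0.651 of its DMSO level with apicidin, a log2 fold change of -0.62 ± 0.05 (SE) in the authors' deposited table. The wide downstream pair had -0.63 ± 0.08 and -0.73 ± 0.08, the region 90.2 kb downstream -0.64 ± 0.12, and the region 44.0 kb upstream -0.52 ± 0.10, in the authors' deposited table. These 5 regions were all called lower, and their values ran from -0.52 to -0.73.

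More negative values lay in a stretch at the upstream edge and at single regions elsewhere. The region from 52915163 to 52916520, 55.5 kb upstream of the inner start, fell by 1.07 ± 0.14 in the authors' deposited table, to 0.478 of DMSO, at a base mean of 316 and a density of 232 per kb, the second highest of the locus. Its neighbour from 52912896 to 52915014 fell by 0.87 ± 0.17 (authors' deposited table). Beyond them, 4 narrow regions of 0.184 to 0.419 kb and base means of 33.6 to 66.1 had values of -1.18 ± 0.38, -1.16 ± 0.29, -0.39 ± 0.39 and -1.10 ± 0.40 in the authors' deposited table, and the third of them was not called. Elsewhere, the region 15.5 kb upstream (base mean 150) fell by 0.97 ± 0.21 and the farthest downstream one, at 93.5 kb (base mean 53.1), fell by 1.15 ± 0.33 in the authors' deposited table. The lowest value of all, -1.21 ± 0.37, was at a weak region 36.9 kb upstream (base mean 44.0), whose SE is far above the 0.05 of the start domain.

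The exceptions were weak regions. The 1 positive value for apicidin, 0.18 ± 0.46 in the authors' deposited table, belonged to the weakest region of the locus (base mean 24.7, 26.4 kb downstream), and GSI gave 0.08 ± 0.48 there. All 19 regions above the GSI testing level were called lower with apicidin, and 5 of the 16 below it were. Medians of these strong and weak regions were -0.64 and -0.59, and their median SEs 0.16 and 0.37. Several calls lay near the threshold: regions 55.0 and 26.9 kb from the start had adjusted p-values of 0.0488 and 0.0466, and one at 85.9 kb, not called, had 0.0540 in the authors' deposited table (DESeq2).

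**Figure D2:**
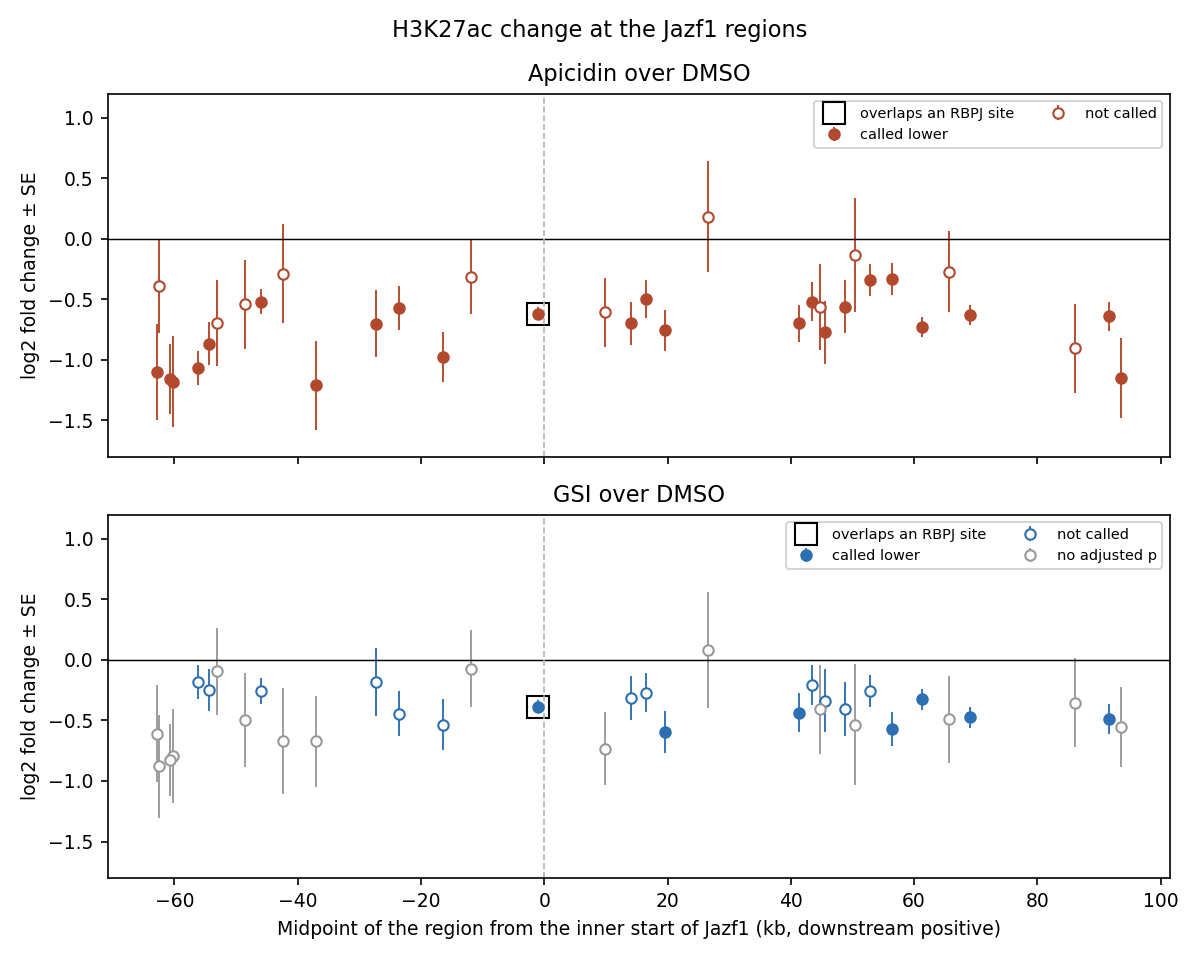
Authors' log2 fold change ± SE of each Jazf1 region (y axis) for apicidin over DMSO (upper panel) and GSI over DMSO (lower panel) against the distance of its midpoint from the inner start in kb (x axis). Filled points were called lower, open coloured points were not called, grey points had no adjusted p, and the square marks the RBPJ-overlapping region; 34 of 35 points lie below 0 in each panel.

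With GSI, the Jazf1 regions were lower than in DMSO cells too, and in 18 of the 19 regions above the testing level the value was smaller in size than with apicidin. In the authors' deposited table, 34 of 35 regions had a negative value, the median was -0.44 and the range -0.88 to 0.08, against a median of 0.0022 over all regions. Of the 19 regions with an adjusted p, 7 were called lower, 12 were not called and 0 were called higher, and at an unadjusted p under 0.05 there were also 0 higher among all 35. Of all tested regions, 7.17% were called lower with GSI and 6.62% higher. The apicidin and GSI values share the DMSO libraries, so the common direction of the 2 sets is not independent.

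The GSI calls fell on the start domain and on downstream regions. The start domain fell to 0.765 of DMSO with GSI, -0.39 ± 0.05 in the authors' deposited table. The wide pair 65.9 and 57.8 kb downstream fell by 0.47 ± 0.09 and 0.33 ± 0.09, and the region between 52801855 and 52804623, next to the second of them, by 0.57 ± 0.14 (authors' deposited table). The remaining calls were -0.49 ± 0.12 at 90.2 kb, -0.44 ± 0.16 at 40.2 kb and -0.59 ± 0.18 at 18.7 kb downstream in the authors' deposited table, the last being the largest called. Of the tested regions 6 of 12 downstream and 0 of 6 upstream were called lower with GSI, against 13 of 19 and 10 of 15 with apicidin. Whether the sides differ was not tested. Over all regions, tested for GSI or not, the upstream ones were weaker (median base mean 57.3, against 184 downstream). Among those tested for GSI, base means ran from 82.2 to 656 upstream and from 83.8 to 1179 downstream.

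Upstream, the 3 strongest regions had small GSI values, and many of the weak ones had large values with large errors. The regions 44.0, 53.3 and 55.5 kb upstream had -0.25 ± 0.11, -0.25 ± 0.18 and -0.19 ± 0.14 in the authors' deposited table, none of them called. Those 15.5 and 22.7 kb upstream had -0.53 ± 0.21 and -0.44 ± 0.19 and were not called either (authors' deposited table). The 4 narrow regions at the upstream edge had -0.80 ± 0.39, -0.83 ± 0.30, -0.88 ± 0.43 and -0.61 ± 0.40 there (authors' deposited table), the most negative stretch for GSI, but none had an adjusted p. Of the 16 regions without one, 15 were negative and 4 had an unadjusted p under 0.05, with a median of -0.54 against -0.34 for the 19 tested regions.

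The direct difference of the treatments was taken region by region as the apicidin minus the GSI log2 fold change. Its error, the root of the summed squared SEs, is an upper bound because both values use the same DMSO libraries. The difference was negative in 28 of 35 regions, with a median of -0.24, against 0.0092 over the table. After Benjamini-Hochberg adjustment of a two-sided normal p over all regions, 3 Jazf1 regions were lower with apicidin than with GSI, 32 were not called and 0 were higher, against 5.6% lower and 3.01% higher in the table. The 3 were the upstream region from 52915163 to 52916520, with a difference of -0.88 ± 0.20, the second region of the wide downstream pair, with -0.40 ± 0.12, and the start domain, with -0.23 ± 0.07. At an adjusted p under 0.01, and also after subtracting the trend of fold change over base mean, 1 region was called, the upstream one. The calls at the start domain and the downstream region are thus lost without the trend, at Benjamini-Hochberg adjusted p-values of 0.447 and 0.398. The positive differences, such as 0.24 ± 0.19 at 55.0 kb and 0.48 ± 0.58 at 62.3 kb, were not called. A difference that was not called does not show that the treatments acted alike there. Because Jazf1 was selected on both fold changes, the called differences are a description too. Their p-values do not account for that choice.

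**Figure D3:**
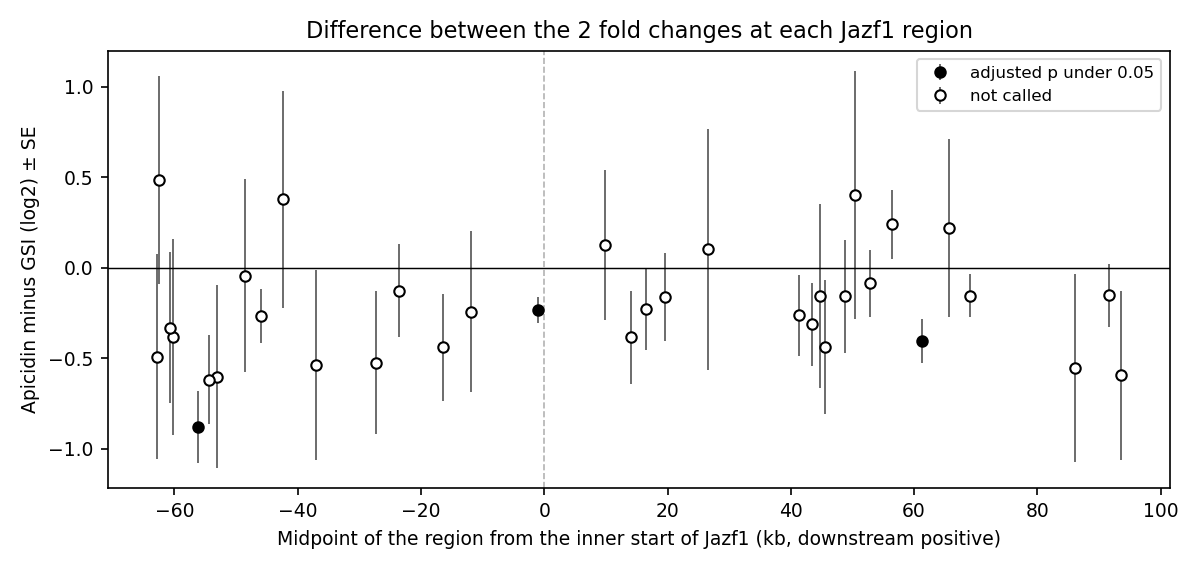
Apicidin minus GSI log2 fold change ± SE at each Jazf1 region (y axis) against the distance of its midpoint from the inner start in kb (x axis, downstream positive). Filled points, 3 of 35, had an adjusted p under 0.05, and the lowest of these lies upstream at -0.88.

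Medians were most negative in the class farthest from the inner start. The 9 regions within 30 kb had medians of -0.61 with apicidin and -0.31 with GSI, the 16 at 30 to 60 kb -0.56 and -0.37, and the 9 beyond 60 kb -0.91 and -0.55. The farthest class was also the weakest, with a median base mean of 45.7 against 150 within 30 kb, so distance and strength cannot be told apart here.

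Among genes with many regions, Jazf1 stood near the end of the range, which is the choice of the gene restated. Of the 404 symbols with at least 20 regions, 1 had a larger share of regions called lower with apicidin than the 68.6% of Jazf1; this was Hey1, a Notch target gene with 71.4% of 21 regions, named after its value was seen. The median share was 4.76%. For the share of negative values, 97.1% for Jazf1, 1 symbol exceeded it with apicidin (Ahdc1) and 5 with GSI (Gm6567, Hey1, I730028E13Rik, Rapgef2 and Syt6), also named after their values were seen, with medians of 45.8% and 52.3%.

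**Figure D4:**
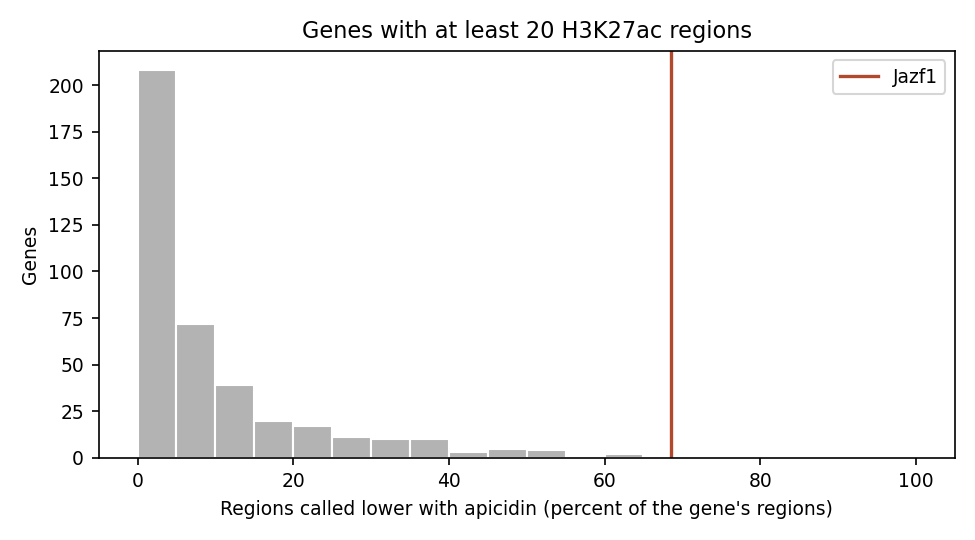
Number of genes (y axis) by the share of their regions called lower with apicidin in percent (x axis), for the 404 genes with at least 20 regions; the line marks Jazf1 at 68.6%, and the median gene had 4.76%.

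The genes with the most similar mean changes were Smyd2, a lysine methyltransferase gene, Tax1bp1, an autophagy receptor gene, Ube2e2, a ubiquitin-conjugating enzyme gene, Pecam1, an adhesion receptor gene, and Poll, a DNA polymerase gene. Likeness was the distance in the plane of the mean apicidin and mean GSI log2 fold change over regions tested for GSI, among 1254 symbols with at least 5 such regions. Jazf1 averaged -0.66 with apicidin and -0.36 with GSI over 19 regions. The distances of the 5 genes ran from 0.0360 to 0.0528, and the median over all 1253 symbols other than Jazf1 was 0.744. Since these 5 were picked as the nearest, that gap follows from the choice. Smyd2 averaged -0.67 and -0.33 over 8 regions, Tax1bp1 -0.68 and -0.33 over 7, Ube2e2 -0.62 and -0.38 over 5, Pecam1 -0.62 and -0.39 over 5, and Poll -0.64 and -0.41 over 8. None of these 5 genes, with 7 to 17 regions each, had an RBPJ-overlapping region. Only 2.73% of all regions carry that mark, so its absence from these genes shows little.

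Tax1bp1 is the downstream neighbour, and 3 of its 12 regions lie inside Jazf1 by the distance of the gene's end from the inner start. All 3 were tested for GSI, so they are among the 7 regions behind its averages above. The first of these 3, from 52720336 to 52721903, was not called with either agent (-0.10 ± 0.19 with apicidin and -0.07 ± 0.19 with GSI in the authors' deposited table). The second, from 52724758 to 52728290, fell by 0.57 ± 0.10 with apicidin (adjusted p = 6.57e-08) and by 0.42 ± 0.10 with GSI (adjusted p = 4.21e-04) per the authors' deposited table (DESeq2). The third, from 52747332 to 52748391, fell by 1.62 ± 0.24 with apicidin (adjusted p = 5.34e-10), while its GSI value was -0.46 ± 0.23 (adjusted p = 0.198) in the authors' deposited table (DESeq2). With these 3 added, 26 of 38 regions were lower with apicidin, 8 of 22 tested were lower with GSI, and 4 of 38 differed between the treatments.

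Beyond the gene the values varied between regions, and some regions were called lower with both agents. The Tax1bp1 promoter region fell by 0.41 ± 0.11 with apicidin (adjusted p = 0.0012) and had 0.03 ± 0.11 with GSI (adjusted p = 0.915) in the authors' deposited table (DESeq2). Between that promoter and the end of Jazf1, the Tax1bp1 regions from 52674865 to 52675790 and from 52709213 to 52711211 were called lower with both agents. They fell by 0.95 ± 0.21 and 0.83 ± 0.17 with apicidin, and by 0.84 ± 0.22 and 0.50 ± 0.17 with GSI. The Tax1bp1 region from 52648050 to 52649718 was called with neither. Both regions of Hibadh, a valine catabolism gene, that overlap an RBPJ site fell with apicidin, by 0.67 ± 0.11 and 0.56 ± 0.13, and neither was called with GSI (-0.20 ± 0.11 and -0.08 ± 0.13), in the authors' deposited table. The remaining Hibadh regions were weak, were not called with apicidin and had no adjusted p for GSI. Their GSI values were 0.35 ± 0.47, -0.04 ± 0.52, -0.37 ± 0.39 and -1.37 ± 0.34 in the authors' deposited table. Skap2, an adaptor protein gene, had 1 of 2 regions lower with apicidin, and its 1 tested region was lower with GSI. On the other side, the 1 region of the transcription factor gene Creb5 had 0.05 ± 0.19 with apicidin and rose by 0.59 ± 0.20 with GSI (adjusted p = 0.0235) in the authors' deposited table (DESeq2). Evx1, Tril, Cpvl and Chn2 had no region under their symbols in the table used.

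Genes of the TIP60/NuA4 complex, to which the human protein belongs, were each taken by their strongest region. Of 18 listed genes with a region (Brd8 had none under its symbol), 9 fell, 9 were not called and 0 rose with apicidin by the authors' DESeq2 calls, with a median of -0.39. Over the strongest regions of all 12081 symbols 33.5% fell and 12.0% rose, with a median of -0.18. With fold changes centred on the stronger regions, and also with the trend over base mean subtracted, 8 fell and 0 rose. Of all symbols, 25.1% fell and 16.1% rose on centring, and 22.9% fell and 16.8% rose with the trend subtracted. Epc2 and Epc1, scaffold subunits, fell by 0.78 ± 0.10 (adjusted p = 1.97e-13) and 0.79 ± 0.12 (adjusted p = 2.94e-10), and Kat5, the catalytic acetyltransferase, by 0.54 ± 0.09 (adjusted p = 2.84e-08), in the authors' deposited table. The chromatin remodeller gene Ep400 fell by 0.43 ± 0.10 (adjusted p = 7.73e-05) and the large scaffold gene Trrap by 0.69 ± 0.19 (adjusted p = 0.0015) in the same authors' deposited table (DESeq2). Ruvbl1, Ruvbl2, Vps72 and Dmap1 were among those not called (-0.19 ± 0.20, -0.18 ± 0.11, -0.17 ± 0.15 and -0.32 ± 0.15). Other regions of these genes were called both ways with apicidin. Higher were 3 regions of Actb and 1 each of Dmap1 and Morf4l1. Lower were 1 each of Dmap1 and Morf4l2, and another region of Ing3.

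At these strongest regions, few of the same genes were called with GSI. The actin gene Actb rose by 0.32 ± 0.06 (adjusted p = 6.43e-07) and Meaf6 fell by 0.58 ± 0.17 (adjusted p = 0.0094) in the authors' deposited table (DESeq2), 15 were not called and Mbtd1 was untested, with a list median of -0.03. Over all symbols 7.74% of tested strongest regions rose and 6.8% fell with GSI. Kat5 had 0.15 ± 0.09 and Ep400 -0.02 ± 0.10 with GSI, neither called. Counting all regions of these genes, 4 of Actb, its strongest included, and 1 of Morf4l2 were higher with GSI. Besides the Meaf6 region, 1 region of Dmap1 was lower.

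**Figure D5:**
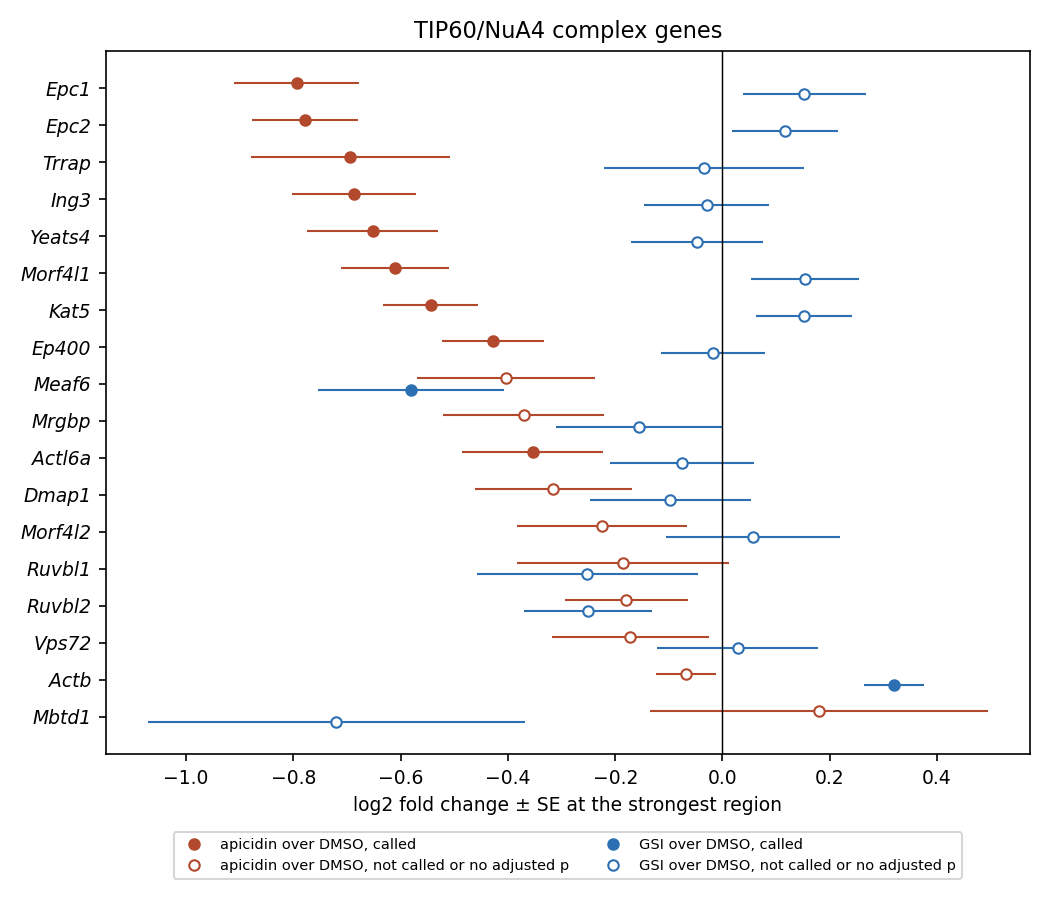
Authors' log2 fold change ± SE at the strongest region of 18 TIP60/NuA4 genes (rows) for apicidin over DMSO and GSI over DMSO (x axis); filled points were called and open points were not, or had no adjusted p. With apicidin 9 genes lie below 0 as called decreases, and with GSI Meaf6 and Actb are the called genes.

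By their strongest regions, both genes of the H2A.Z variant, a substrate of that complex, fell with apicidin. H2afz fell by 0.80 ± 0.09 (adjusted p = 8.40e-16) and H2afv by 0.77 ± 0.12 (adjusted p = 7.69e-09) in the authors' deposited table (DESeq2). Neither was called with GSI (-0.15 ± 0.09 and 0.05 ± 0.12). A partner list, for the human protein or its fusions, was also read by strongest regions. In it Nr2c2 fell by 0.38 ± 0.07, its relative Nr2c1 by 0.59 ± 0.12 and the Polycomb subunit gene Suz12 by 0.59 ± 0.18 with apicidin, while Phf1 had -0.19 ± 0.13 and was not called, in the authors' deposited table. Of the 6 regions of H2afv and the 5 of Nr2c2, 1 each was called lower with apicidin. Another region of Nr2c2 was called higher. None of the 5 genes of this list, which holds the relative Nr2c1 and also Epc1, was called with GSI. Epc1 is among the TIP60/NuA4 genes too, so its decrease enters both counts. As deposited, 2 of 2 H2A.Z genes and 4 of 5 genes of the partner list were lower with apicidin, against 33.5% of all symbols by their strongest regions. With the trend over base mean subtracted these were 2 of 2 and 3 of 5, against 22.9%.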

How the data were processed

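The files used hold comparisons, not values per library. Per the submitters' processing notes, the authors used FastQC, Bowtie2, SAMtools and deepTools on mouse build mm9. No version, region caller, read counter or use of the inputs is given in the sources used here. Per the file headers, the deposited columns are those of DESeq2: the base mean is a signal the authors averaged over libraries, the log2 fold changes and their SEs are the authors' own, the Wald score is the deposited fold change over its SE, and the p-values and adjusted p-values were deposited too. The headers name no reference, which was taken to be DMSO. Readjusting the p-values by Benjamini-Hochberg matched the deposited adjusted p within 5.40e-07 (apicidin) and 1.03e-06 (GSI). An adjusted p was deposited for 56342 regions (apicidin) and 25756 regions (GSI), and a region without one counts as untested. Other deposited columns are the distance to the TSS and an RBPJ overlap mark by the authors.

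Computed here with Python 3.11.15, pandas 2.3.3 and scipy 1.17.1 were the counts, medians, the start site from the distances, the difference between treatments (planned as such, since no direct contrast could be fitted; tested on simulated data) and the alternatives: an adjusted p under 0.01, centring on the median of the stronger regions, those not below the median base mean (-0.0991 for apicidin), subtracting a running median over 1001 regions, a base mean filter, and regions within 50 kb. The simulation drew the apicidin and GSI fold changes independently, so it did not cover the shared DMSO libraries. Named were all Jazf1 regions, listed neighbours, TIP60/NuA4, H2A.Z and partner genes, and the 5 most alike genes. The gene, lists and rules were chosen with earlier results of these data known.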

Additional observations from a re-analysis of the deposited data

How the results depend on the processing

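As deposited, 24 Jazf1 regions were lower with apicidin, 7 with GSI, and 3 differed between the treatments. Within 50 kb of the inner start, where 19 of the 35 regions lie, these became 13, 3 and 1, fewer because fewer regions enter. The count that differed between treatments was 1 at an adjusted p under 0.01 and 1 with the trend over base mean subtracted; the cause was not tested. Under the other settings run, the apicidin count ran from 17 to 26 and the GSI count from 6 to 8, and 0 regions were called higher with either treatment. The start domain stayed called lower on centring and without the trend (-0.52 and -0.54 with apicidin, -0.38 and -0.42 with GSI). Adding the 3 Tax1bp1-assigned regions was chosen after seeing the data. No paired analysis was possible because the table holds no values per library, and leaving out a replicate was not run for the same reason. Depth per library is unknown, and regions with a base mean under 72.1 had no adjusted p for GSI.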
